A study of Mus musculus with 15 samples.

Results

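Genes for 9 secreted proteins that promote or restrain blood vessel growth were followed in mouse podocytes under mechanical stretch: Vegfa, Vegfb, Vegfc, Apln, Cnmd, Angpt1, Angpt2, Angptl2 and Angptl4. These 9 of the 55416 genes in the count table were picked by name, with the strong falls of Apln and Cnmd under stretch already known. The differences between stretched and unstretched samples are therefore given for these genes as a description, without p-values, and the calls of the fit over all genes are listed for them only beside the share of all genes called. The cells were SVI, a conditionally immortalised mouse podocyte line, which had been differentiated and seeded on flexible silicone membranes. In experiment 1, 6 low-stretch samples were sequenced with 3 unstretched samples, and in experiment 2, 3 high-stretch samples with 3 unstretched samples. Low stretch is labelled as a deflection of 5 to 6 mm and high stretch as 7 to 8 mm, and the design text gives 6 and 8 mm as the maximum at the membrane's centre. Since each amplitude was used in 1 experiment, amplitude and experiment cannot be told apart, and stretched samples were set only against unstretched ones from their own experiment. All samples come from the same line, and the labels do not say that samples of a group were separate cultures, so a spread or p-value may measure technical variation only. In bulk RNA, fewer cells that express a gene and less RNA per cell cannot be told apart.

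Podocytes wrap the capillaries of the kidney glomerulus and are its main source of VEGF-A, which signals to the VEGF receptors of the neighbouring endothelial cells. VEGF-B and VEGF-C are relatives with partly different receptors, apelin (Apln) acts through its own G protein-coupled receptor Aplnr, and angiopoietin 1 and angiopoietin 2 (Angpt1, Angpt2) act through the endothelial receptor Tek, the first as an activator and the second as a context-dependent antagonist. Chondromodulin (Cnmd) is an anti-angiogenic protein best known from cartilage. Angptl2 and Angptl4 share the fold of the angiopoietins but not their receptor: Angptl2 is linked to inflammation and vessel growth, and Angptl4 inhibits lipoprotein lipase and responds to fatty acids and low oxygen.

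Vegfa messages differ in the exons between the shared 5′ exons and the last exon. Exons 6 and 7 encode stretches that bind heparin, and they decide how strongly the secreted protein is held by the matrix. The exons are shown because the Vegfa transcripts below are grouped by them. Both lie on chromosome 17, minus strand, and were read from transcript Vegfa-207 of GENCODE M21. Capitals mark the last 18 bases of exon 6, which are absent from a shorter, 54-base form of the exon in the same annotation.
Vegfa exon 6, 72 bases: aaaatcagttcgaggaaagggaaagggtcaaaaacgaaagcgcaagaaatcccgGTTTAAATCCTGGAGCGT
Vegfa exon 7, 132 bases: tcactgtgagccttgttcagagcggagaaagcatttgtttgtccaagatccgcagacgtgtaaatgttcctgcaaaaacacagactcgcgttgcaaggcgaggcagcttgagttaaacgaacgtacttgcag

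The 250 bases upstream of the annotated start are shown for Cnmd and Apln, the genes with the widest differences under stretch. The windows are RefSeq's for build GRCm38.p6, whereas the submitters' processing notes name mm39. The Cnmd window is chr14:79662184-79662433 and the Apln window is chrX:48034854-48035103, both on the minus strand and both printed 5′ to 3′.
Cnmd upstream window: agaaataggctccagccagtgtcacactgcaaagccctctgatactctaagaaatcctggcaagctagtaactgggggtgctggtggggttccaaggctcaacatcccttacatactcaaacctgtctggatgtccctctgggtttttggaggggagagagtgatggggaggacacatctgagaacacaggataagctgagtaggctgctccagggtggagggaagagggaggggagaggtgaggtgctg
Apln upstream window: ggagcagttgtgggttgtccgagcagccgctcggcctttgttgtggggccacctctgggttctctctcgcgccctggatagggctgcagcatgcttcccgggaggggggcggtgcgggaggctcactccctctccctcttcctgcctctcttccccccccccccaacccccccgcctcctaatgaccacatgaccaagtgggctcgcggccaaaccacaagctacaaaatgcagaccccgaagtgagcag
The windows were searched on both strands for ACGTG and GCGTG, cores of the hypoxia-inducible factor site, for GGAATG, a TEAD core, and for TGANTCA, an AP-1 site. None of these letters occurred in the Cnmd, Apln or Angptl2 windows. Across 32851 mouse promoter windows of the same length, ACGTG occurred in 16.57%, GCGTG in 28.16%, GGAATG in 12.64% and TGANTCA in 6.75%. The Vegfb window held GCGTG at 2 places. Of 2 Vegfa windows, the one upstream of the gene's first start held none of these letters. The other, at an internal start, held ACGTG and GCGTG at 1 place each. It lies within the gene, so its bases need not be promoter sequence. Windows were found for 6 of the 9 genes, the others being Angpt1, Angpt2 and Angptl4.

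Total counts ranged from 172.2 to 396.7 megacounts per sample. The number of genes called changed strongly with a single sample left out. Under high stretch the 643 genes called became 14, 90 and 293 without high-stretch replicates 3, 1 and 2, and 122, 700 and 1421 without unstretched replicates 1, 2 and 3. Under low stretch the 1181 called became 220 to 1630 with a sample left out, with the fewest called without unstretched replicate 3 and the most without low-stretch replicate 5. The 8 podocyte markers summed to between 354 and 972 CPM (counts scaled to the library size, here with the TMM correction) in every group, although Tcf21 was at 0 in both stretched groups and Wt1 was lower under high stretch (log2 fold change -2.36, SE 0.45, edgeR adjusted p = 0.031). The 7 endothelial markers summed to between 0.54 and 1.25 CPM in all groups, with none reaching 1 CPM. Of these, edgeR called 0 of the 3 tested under low stretch and 0 of 3 under high stretch, with 1 and 2 at an unadjusted p under 0.05, and DESeq2 called 1 and 0. Over all genes, 5104 of 21672 and 2705 of 18524 were at an unadjusted p under 0.05. There DESeq2 called 2694 of 23556 and 1321 of 21908. The 5 macrophage and leukocyte markers summed to between 23.5 and 26.3 CPM in the unstretched groups, to between 6.76 and 13.2 CPM under low stretch and to between 5.94 and 9.93 CPM under high stretch. Csf1r alone carried this change (log2 fold change -1.51 and -2.02, edgeR adjusted p = 0.0074 and 0.0081), while Adgre1 was at 0 in all groups but low stretch. Cd68 had log2 fold changes of -0.12 (SE 0.13) under low and 0.86 (SE 0.27, edgeR adjusted p = 0.16) under high stretch. Lyz2 was lower in both (-1.27 and -0.90) and Ptprc was higher under low stretch (0.91), and neither was called. The 4 tubule markers, nearly all Lrp2, had mean sums of 990 CPM (unstretched) and 634 CPM in experiment 1. In experiment 2 these were 470 and 356 CPM. For the 7 mesangial and fibroblast markers they were 97.2 and 69.4 CPM, and 150 and 116 CPM. Under low stretch edgeR called Lrp2 (-0.65), the tubule marker tested, and 1 of 4 mesangial markers, Pdgfrb (-0.56), beside 5.45% of all genes. Under high stretch it called 0 of 1 and 0 of 4 (3.47% of all genes). The part of these markers in the results below was not tested.

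Compared per transcript length in TPM (abundance scaled to transcript length and library total), Vegfb was the most abundant of the 9 genes in all 4 groups, at 66.0 ± 3.45 TPM (SD, n = 3) without stretch in experiment 1 and 79.5 ± 1.95 TPM (SD, n = 3) without stretch in experiment 2. Apln stood next in both unstretched groups, at 32.1 ± 31.3 TPM (SD, n = 3) and 35.5 ± 9.44 TPM (SD, n = 3), although its range in experiment 1 overlapped those of Vegfb and Vegfa. In the stretched groups Angptl2 stood in that place, at 29.4 ± 5.09 TPM (SD, n = 6) after low and 41.7 ± 3.88 TPM (SD, n = 3) after high stretch, in both cases without overlap with its neighbours. Vegfa followed in the stretched groups at 18.4 ± 1.82 TPM (SD, n = 6) and 10.3 ± 1.27 TPM (SD, n = 3). Cnmd moved from the fifth place in both unstretched groups to the seventh in both stretched groups. Angpt1 and Vegfc were lowest throughout, below 0.41 TPM in every sample.

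**Figure D1:**
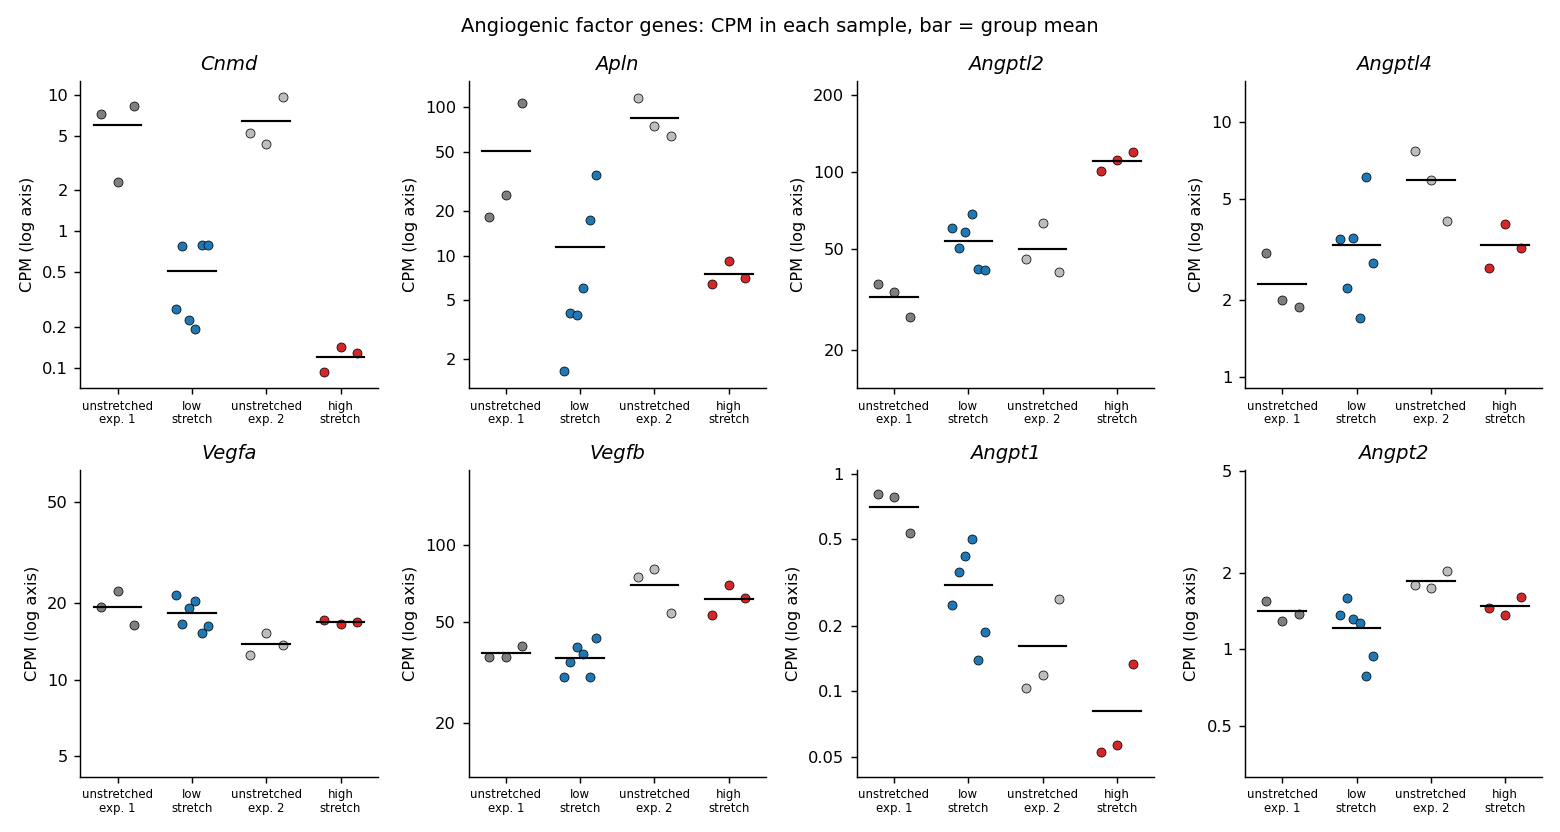
Level of 8 genes in each of the 15 samples, in CPM on a log axis, with one point per sample and a bar for the group mean. Cnmd lies at 0.0931 to 0.796 CPM in the stretched samples and at 2.30 to 9.66 CPM in the unstretched samples, and Angptl2 is higher in the stretched group of each experiment without overlap.

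Cnmd, the anti-angiogenic factor, was the gene with the widest difference. In experiment 1 the 3 unstretched samples had 7.23, 2.30 and 8.30 CPM, and the 6 low-stretch samples ranged from 0.194 to 0.796 CPM with a median of 0.527. In experiment 2 the 3 unstretched samples had 5.20, 4.33 and 9.66 CPM, and the 3 high-stretch samples had 0.0931, 0.142 and 0.129 CPM. In both experiments every stretched sample lay below every unstretched one. The group means were 11.6-fold apart in experiment 1 and 52.7-fold apart in experiment 2, with log2 fold changes of -3.53 (SE 0.52) under low stretch and -5.72 (SE 0.43) under high stretch. The high-stretch samples held between 20 and 32 Cnmd counts each, so counting error is larger there than elsewhere. With a sample left out the high-stretch value ranged from -5.93 to -5.26.

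The other cartilage-linked genes were looked at beside Cnmd. The 6 chondrocyte markers summed to between 22.4 and 42.0 CPM in the unstretched and between 20.5 and 35.2 CPM in the low-stretch samples of experiment 1. In experiment 2 they summed to between 50.1 and 67.9 CPM unstretched and between 24.6 and 33.9 CPM under high stretch. Sox9, a transcription factor of cartilage, had means of 33.2 CPM unstretched and 25.8 CPM stretched in experiment 1, and of 55.6 and 28.5 CPM in experiment 2. The means of the sums were 35.2 and 27.1 CPM, and 58.7 and 30.1 CPM, so the sums were mostly Sox9. Acan, Matn1 and Col9a1 were removed by the low-count filter in every comparison, and Col9a1 was at 0 in both groups of experiment 2. Of the 3 markers tested, edgeR called 0 under low stretch, with 2 at an unadjusted p under 0.05 (5104 of 21672 over all genes) and 1 called by DESeq2 (2694 of 23556). Under high stretch it called 1, Sox9 (log2 fold change -0.94, SE 0.20, edgeR adjusted p = 0.044), beside 3.47% of all genes. Col2a1, the main cartilage collagen, had a log2 fold change of -0.90 (SE 0.24, edgeR adjusted p = 0.092) under high stretch. Their part in the Cnmd difference was not tested.

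Apln, the apelin ligand, was also lower under stretch, with a wide spread in experiment 1. There the 3 unstretched samples had 18.1, 25.7 and 107.4 CPM and the 6 low-stretch samples had 1.67, 4.13, 4.00, 6.08, 17.5 and 34.8 CPM. The groups overlapped: low-stretch replicate 6 lay above 2 of the 3 unstretched samples. The highest low-stretch sample was 20.8-fold above the lowest, which is far more than for Vegfa, where the same ratio was 1.41. In experiment 2 the 3 unstretched samples had 115.5, 74.8 and 63.9 CPM and the 3 high-stretch samples had 6.46, 9.15 and 7.07 CPM, with no overlap. The group means were 4.43-fold apart in experiment 1 and 11.2-fold apart in experiment 2. The log2 fold changes were -2.15 (SE 0.84) under low stretch and -3.47 (SE 0.27) under high stretch. With a sample left out they ranged from -2.92 to -0.97 and from -3.61 to -3.19.

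The sample descriptions carry codes that read as consecutive plate positions. For this comparison they were divided into runs that each start at an unstretched sample and hold the 2 low-stretch samples or the 1 high-stretch sample that follow it. The division was made here, and the labels do not say what neighbouring positions share. Deviations from the group means were correlated between unstretched and stretched samples. In experiment 1 the values were 0.328 to 0.57 within runs and -0.52 to -0.0521 between runs. Deviations from a group mean sum to 0, so negative values between runs follow in part from the construction. In experiment 2 the values were -0.163 to 0.45 within runs and -0.541 to 0.443 between runs, so they did not set the runs apart there. Within the 3 runs of experiment 1 the unstretched Apln level was 6.24, 5.10 and 4.11 times the mean of the stretched pair, and in experiment 2 it was 17.9, 8.17 and 9.04 times the stretched level. The highest unstretched sample and the 2 highest low-stretch samples of experiment 1 shared a run. With the run as a block, the low-stretch log2 fold change of Apln was -2.35 and its SE was 0.26 instead of 0.84. For Cnmd the same ratios were 13.7, 11.0 and 10.4 in experiment 1 and 55.9, 30.5 and 74.8 in experiment 2. Both genes were thus lower in the stretched samples of all 6 runs.

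**Figure D2:**
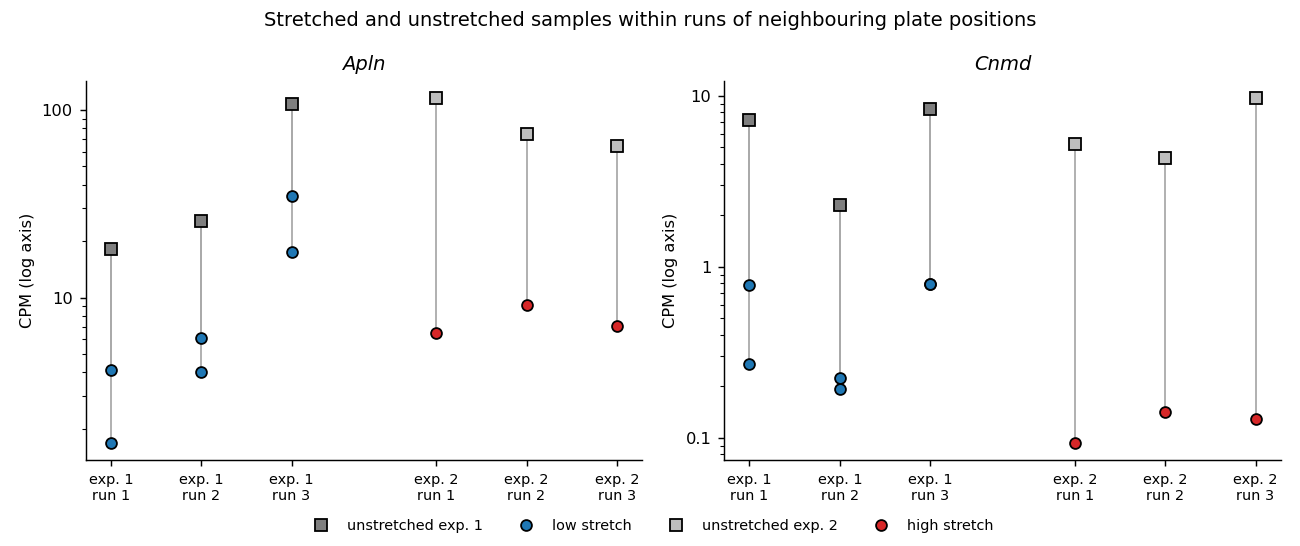
Apln and Cnmd in CPM (log axis) by run of neighbouring plate positions, with squares for unstretched samples, circles for stretched samples and a grey line joining samples of a run. Every circle lies below the square of its run; the 2 low-stretch circles of run 3 coincide for Cnmd at 0.796 CPM.

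Angptl2 differed in the other direction. The 3 unstretched samples of experiment 1 had 36.5, 33.9 and 27.1 CPM, and the 6 low-stretch samples ranged from 41.3 to 68.4 CPM with a median of 54.3. The 3 unstretched samples of experiment 2 had 45.6, 63.1 and 40.6 CPM, and the 3 high-stretch samples had 101.0, 111.2 and 119.8 CPM. In both experiments every stretched sample lay above every unstretched one. The group means were 1.64-fold apart under low and 2.22-fold apart under high stretch, with log2 fold changes of 0.71 (SE 0.17) and 1.17 (SE 0.20). Within runs the stretched level was 1.52, 1.87 and 1.54 times the unstretched one in experiment 1 and 2.21, 1.76 and 2.95 times in experiment 2. Angptl2 lies within Ralgps1 on the opposite strand, and whether the counting used strand is not given in the sources used here. Ralgps1 had log2 fold changes of -0.07 and -0.05 in the same comparisons, so the Angptl2 difference had no counterpart in that gene.

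Angptl4, the lipase inhibitor, differed in opposite directions in the experiments. In experiment 1 the 3 unstretched samples had 3.06, 2.01 and 1.88 CPM and the 6 low-stretch samples ranged from 1.70 to 6.08 CPM with a median of 3.14, so that the groups overlapped. In experiment 2 the 3 unstretched samples had 7.73, 5.95 and 4.09 CPM and the 3 high-stretch samples had 2.67, 4.00 and 3.20 CPM, which lay below them by a narrow margin. The log2 fold changes were 0.50 (SE 0.35) and -0.83 (SE 0.28). Under low stretch 4 of 6 samples lay above the unstretched mean, while under high stretch 3 of 3 lay below it. With a sample left out the high-stretch value ranged from -1.01 to -0.60.

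Vegfa itself differed little. The 3 unstretched samples of experiment 1 had 19.3, 22.2 and 16.4 CPM, and the 6 low-stretch samples ranged from 15.3 to 21.6 CPM with a median of 17.8, within nearly the same range. The 3 unstretched samples of experiment 2 had 12.5, 15.2 and 13.7 CPM and the 3 high-stretch samples had 17.1, 16.6 and 16.9 CPM, which lay above them. In TPM these groups overlapped, at 6.14, 6.84 and 11.6 unstretched and 11.7, 9.18 and 10.2 under high stretch. The log2 fold changes were -0.09 (SE 0.14) under low and 0.31 (SE 0.18) under high stretch, each less than 2 SE from 0.

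Vegfb had 36.3, 36.5 and 40.1 CPM in the unstretched samples of experiment 1 and from 30.4 to 43.4 CPM, median 36.1, under low stretch. In experiment 2 it had 74.7, 80.3 and 54.0 CPM unstretched and 53.1, 69.8 and 61.8 CPM under high stretch. The groups overlapped in both experiments, with log2 fold changes of -0.07 (SE 0.12) and -0.16 (SE 0.20). Vegfc, best known as the growth factor of lymphatic vessels, was close to undetected. Its counts were 9, 7 and 2 in the unstretched and between 2 and 13 in the low-stretch samples of experiment 1, and 0, 2 and 7 in the unstretched and 6 in each high-stretch sample of experiment 2. It was removed by the filter on low counts in every comparison, and no fold change is given.

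Angpt1 and Angpt2, the ligands of Tek, were both low in these cells. Angpt1 had 0.806, 0.786 and 0.533 CPM in the unstretched samples of experiment 1 and from 0.139 to 0.502 CPM, median 0.302, under low stretch, without overlap. In experiment 2 it had 0.103, 0.119 and 0.266 CPM unstretched and 0.0526, 0.0567 and 0.133 CPM under high stretch, where the groups overlapped. The log2 fold changes were -1.20 (SE 0.35) and -1.01 (SE 0.54), and the stretched level was lower in all 6 runs. Angpt1 counts in experiment 2 were between 8 and 73, and with a sample left out the high-stretch value ranged from -1.55 to -0.37, the latter without unstretched replicate 3.

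Angpt2 had 1.56, 1.29 and 1.38 CPM in the unstretched samples of experiment 1 and from 0.789 to 1.59 CPM, median 1.29, under low stretch. In experiment 2 it had 1.78, 1.74 and 2.04 CPM unstretched and 1.46, 1.37 and 1.61 CPM under high stretch. The groups overlapped in experiment 1 and not in experiment 2, with log2 fold changes of -0.22 (SE 0.21) and -0.31 (SE 0.22). Angpt2 overlaps Mcph1 and Angpt1 overlaps the antisense gene Gm17473. Mcph1 had log2 fold changes of -0.01 and -0.05.

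**Figure D3:**
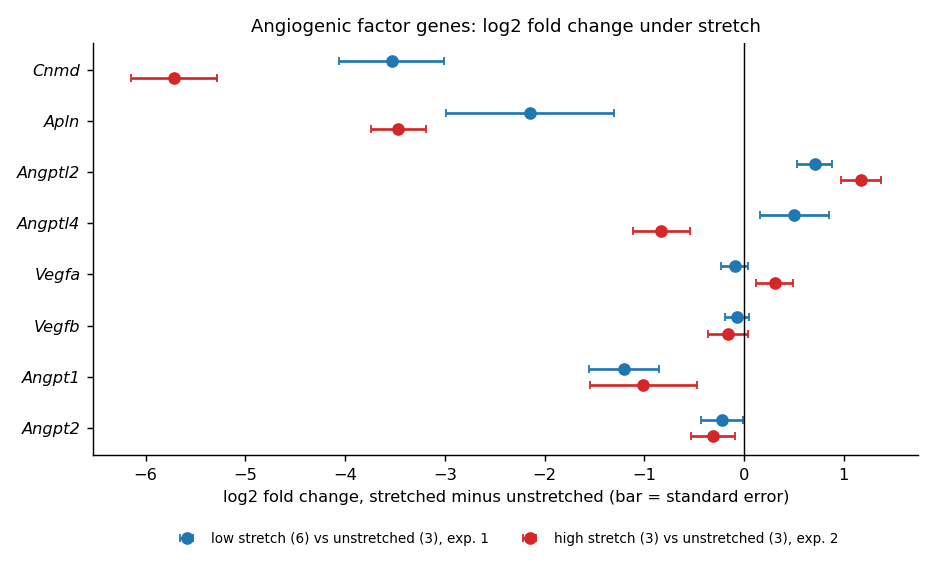
Log2 fold change of stretched over unstretched samples for 8 genes (point) with its standard error (bar), blue for low stretch (6 against 3) and red for high stretch (3 against 3). Cnmd at -5.72 and Apln at -3.47 under high stretch lie farthest from 0.

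Of the 9 genes, 8 passed the filter on low counts in each comparison. Under low stretch edgeR called 2 of the 8, Cnmd lower and Angptl2 higher, where 5.45% of the 21672 genes tested were called (1.85% higher and 3.6% lower). Under high stretch it called 3 of the 8, Cnmd and Apln lower and Angptl2 higher, where 3.47% of 18524 genes were called (1.31% higher and 2.16% lower). Groups did not overlap for 3 of the 8 under low stretch and 6 of the 8 under high stretch, against 15.3% and 20.6% of all genes tested. These contrasts were used to choose the genes, and nothing is read from the counts. The median log2 fold change of the 8 was -0.16 under low and -0.57 under high stretch, beside 0.01 and -0.02 over all genes tested. The Angptl2 call held in all 7 other settings under low and all 6 under high stretch, but was lost in most fits with a sample left out. Under low stretch it remained only without low-stretch replicate 5 or 6 and was lost without any other sample (0.59 to 0.80 over the 9 fits). Under high stretch it remained only without unstretched replicate 2 or 3 (1.08 to 1.39 over the 6 fits).

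Vegfa transcripts were compared by exon content. Of the 13 transcripts annotated, 10 are in the transcript table, 5 of them coding and 5 with a retained intron. In experiment 1 the transcript without exons 6 and 7 (Vegfa-201) took 22.3% ± 1.26 (SD, n = 3) of Vegfa TPM in unstretched and 23.2% ± 1.45 (SD, n = 6) in low-stretch samples. The transcript with exon 7 only (Vegfa-202) took 22.4% ± 3.33 (SD, n = 3) and 21.9% ± 2.78 (SD, n = 6). Non-coding transcripts took 40.5% ± 5.11 (SD, n = 3) and 39.5% ± 3.86 (SD, n = 6). These 3 shares moved by less than 1 SD between unstretched and low-stretch samples. Transcripts with both exons took 2.66% ± 0.826 (SD, n = 3) and 4.23% ± 0.666 (SD, n = 6), and did not overlap by a narrow margin (at most 3.18% unstretched and at least 3.20% stretched).

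In experiment 2 the non-coding transcripts took a smaller share, 23.3% ± 2.55 (SD, n = 3) in unstretched and 20.5% ± 1.94 (SD, n = 3) in high-stretch samples. Vegfa-201 took 32.1% ± 4.07 (SD, n = 3) unstretched and 25.6% ± 1.11 (SD, n = 3) under high stretch, without overlap. Its level was 2.59 ± 0.756 TPM (SD, n = 3) and 2.64 ± 0.313 TPM (SD, n = 3). The shares of a gene's transcripts depend on one another, so this one is not separate from that of Vegfa-203 below. Vegfa-202 took 31.2% ± 6.23 (SD, n = 3) and 27.6% ± 0.755 (SD, n = 3). The transcript with exon 6 only (Vegfa-203) was listed at 0 in unstretched replicates 1 and 2 of experiment 2 and took 15.2% in replicate 3. It took 17.3, 22.8 and 15.5% in the high-stretch samples and between 8.93 and 14.7% in all 9 samples of experiment 1. An exact 0 in such estimates can be a failed assignment of reads, and the TPM values carry no depth. Transcripts with both exons took 8.41% ± 3.80 (SD, n = 3) and 7.77% ± 2.34 (SD, n = 3) under high stretch.

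**Figure D4:**
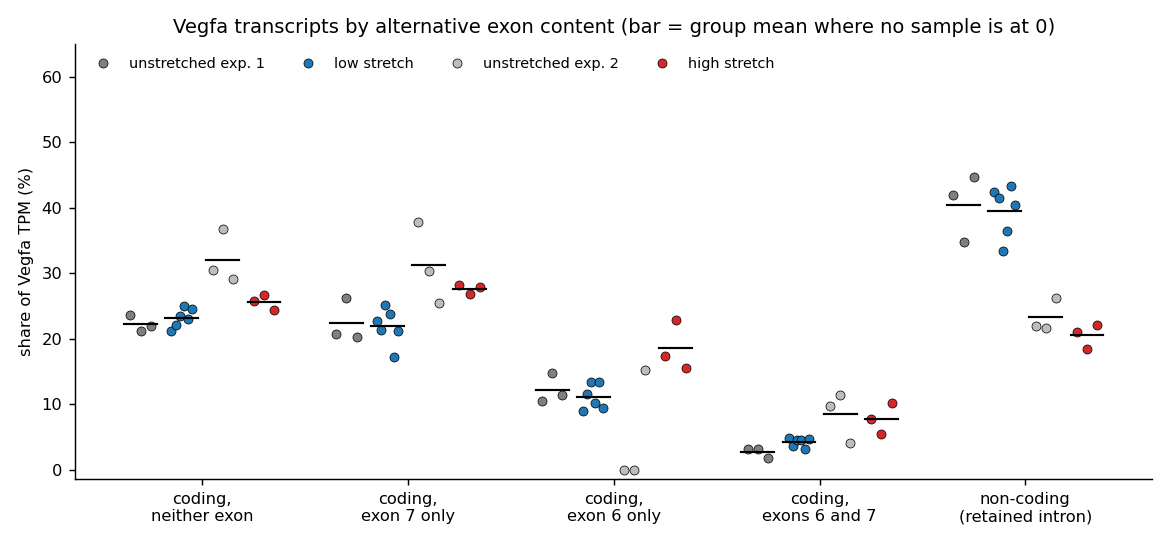
Share of Vegfa TPM (%) in transcripts grouped by exons 6 and 7, with one point per sample and a bar for the group mean where no sample is at 0. The class with exon 6 only is at 0 in 2 of the 3 unstretched samples of experiment 2 and at 15.5 to 22.8% in the high-stretch samples.

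Changes in transcript usage were tested in limma, as the log2 ratio between a transcript and all others of its gene. In each comparison 7 Vegfa transcripts were tested, not the same 7 in both. Of these, 0 were called under low stretch and 0 under high stretch, with 0 and 2 at an unadjusted p under 0.05. Vegfa-207, which held all of the share with both exons, was below the lowest mean fraction of 0.05 in experiment 1. Its low-stretch difference was therefore not tested. Over the table, 0.0145% of 27672 transcripts were called under low stretch and 0% of 23374 under high stretch. Transcripts of the other genes were not used in choosing them. Angpt2-202, a transcript with no annotated coding sequence, took 57.3, 61.6 and 51.3% of Angpt2 TPM in the unstretched samples of experiment 1 and between 68.6 and 76.9% under low stretch, without overlap. Its log2 ratio was 0.94 higher (SE 0.16, limma adjusted p = 0.13), which missed the threshold, and under high stretch the difference was 0.17 (SE 0.28, limma adjusted p = 0.91). Under low stretch 3 Cnmd transcripts had unadjusted p-values under 0.05: Cnmd-205 with a log2 ratio of 1.94 (SE 0.31, limma adjusted p = 0.13), Cnmd-202 with 1.00 (SE 0.16, limma adjusted p = 0.13) and Cnmd-204 with 3.14 (SE 0.76, limma adjusted p = 0.26). They were named after their values were seen. Cnmd itself stood at 0.831 TPM there, the pseudocount was 0.1 TPM, and the mean share of Cnmd-202 went from 10.1 to 9.50%, so the sign of its ratio and of its share differ. Vegfb-201 took 60.7% ± 0.481 (SD, n = 3) unstretched and 60.2% ± 1.53 (SD, n = 6) stretched in experiment 1, and 62.8% ± 1.25 (SD, n = 3) and 62.4% ± 1.62 (SD, n = 3) in experiment 2. Angptl2-201 made up between 91.6 and 95.8% of Angptl2 in all 15 samples. Angptl4-201, the transcript annotated as protein coding, made up 17.1% of Angptl4 TPM on average over the 15 samples. Angptl4-202, annotated as a nonsense-mediated decay transcript, made up 62.0%. By these estimates the Angptl4 gene values above come mostly from other transcripts than the coding one.

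The effects of the amplitudes were compared in a contrast of the 4 groups, in which amplitude and experiment cannot be told apart. Of the 8 genes tested, edgeR and DESeq2 each called 0, as they did over all genes (0% of 22015 in edgeR, with 547 at an unadjusted p under 0.05). Cnmd differed most, with the high-stretch effect lower by 2.20 on the log2 scale (SE 0.80, edgeR unadjusted p = 0.0145, adjusted p = 1.00). Angptl4 followed, with a difference of -1.36 (SE 0.50, edgeR unadjusted p = 0.0151, adjusted p = 1.00). The larger Cnmd difference and the opposite signs of Angptl4 were thus not shown to differ between the amplitudes.

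The unstretched groups were themselves compared, since the experiments differed. Relative to experiment 1, the unstretched samples of experiment 2 had higher Angptl4 (log2 difference 1.34, SE 0.31, edgeR adjusted p = 0.0072), Vegfb (0.87, SE 0.20, edgeR adjusted p = 0.0066) and Angptl2 (0.60, SE 0.22, edgeR adjusted p = 0.042). They had lower Angpt1 (-2.10, SE 0.41, edgeR adjusted p = 0.0055) and Vegfa (-0.50, SE 0.19, edgeR adjusted p = 0.047). Apln and Cnmd were not called (0.74, SE 0.60, and 0.09, SE 0.48). These 5 calls among 8 genes (3 higher and 2 lower) stand beside 62.5% called of all 20707 genes tested (29.7% higher and 32.7% lower), so a difference between the experiments was common. For Angpt1, Angptl4, Vegfb and Vegfa its size was larger than that of either stretch comparison.

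The receptors for these ligands were mostly near the limit of detection. Kdr, the main VEGF-A receptor, and Tie1 were removed by the low-count filter everywhere, at no more than 0.0296 and 0.0515 CPM in any sample. Aplnr, the apelin receptor, had 0.0519 ± 0.00313 CPM (SD, n = 3) unstretched and 0.0530 ± 0.0322 CPM (SD, n = 6) under low stretch, and Tek stayed below 0.084 CPM in all samples. Flt1 and Flt4 stayed below 0.49 CPM. Flt1, which also binds VEGF-B, had a log2 fold change of 1.98 (SE 0.53, edgeR adjusted p = 0.098) under high stretch and missed the threshold.

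The exceptions were neuropilin 1 (Nrp1), a co-receptor of VEGF-A and of class 3 semaphorins, and Nrp2. Nrp1 had 37.9 ± 13.4 CPM (SD, n = 3) in the unstretched and 117 ± 41.7 CPM (SD, n = 6) in the low-stretch samples of experiment 1, and 17.8 ± 4.08 CPM (SD, n = 3) and 83.1 ± 20.8 CPM (SD, n = 3) in experiment 2. It rose by 1.62 on the log2 scale (SE 0.33, edgeR adjusted p = 0.020) under low and by 2.25 (SE 0.28, edgeR adjusted p = 0.0081) under high stretch, and was higher in the stretched samples of all 6 runs. The low-stretch call was lost without unstretched replicate 3 (1.35, edgeR adjusted p = 0.086) and the high-stretch call without high-stretch replicate 3 (2.27, edgeR adjusted p = 0.062). Its relative Nrp2 had 108 ± 29.3 CPM (SD, n = 3) and 124 ± 39.5 CPM (SD, n = 3) in the unstretched groups and differed by 0.08 (SE 0.18) and 0.20 (SE 0.29). Of the 19 receptors and relatives listed, 13 and 10 were tested, and Nrp1 was the gene called in each comparison, beside 5.45% and 3.47% of all genes. With the plate run as a block, 5 were called under low stretch, beside 6106 of all 21672 genes.

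Other secreted inhibitors of angiogenesis came from a list of 12. Under low stretch edgeR called 5 of the 11 tested (5.45% over all genes), and 9 with the plate run as a block (6106 of 21672 over all genes). Sema3a fell by 0.90 on the log2 scale (SE 0.20, edgeR adjusted p = 0.027), Col18a1, the source of endostatin, fell by 0.64 (SE 0.15, edgeR adjusted p = 0.034), and Sema3f fell by 0.42 (SE 0.10, edgeR adjusted p = 0.036). Thbs1 fell too, and Adamts1, a protease with anti-angiogenic repeats, rose by 0.80 (SE 0.14, edgeR adjusted p = 0.010). Under high stretch edgeR called 0 of 10 (3.47% over all genes), with 5 at an unadjusted p under 0.05 (2705 of 18524) and 3 called by DESeq2 (1321 of 21908). There Sema3a had a log2 fold change of -1.32 (SE 0.39, edgeR adjusted p = 0.14) and Col18a1 of -0.93 (SE 0.23, edgeR adjusted p = 0.075). The median of the list was -0.32 under low and -0.52 under high stretch.

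Other secreted angiogenic factors came from a list of 11, of which 10 were tested in each comparison. Under low stretch 4 were called, all lower, and under high stretch 4, all lower, beside 3.6% and 2.16% of all genes called lower. Fgf1 had 4.59 ± 1.55 CPM (SD, n = 3) and 1.84 ± 0.429 CPM (SD, n = 6) in experiment 1, and 4.12 ± 0.639 CPM (SD, n = 3) and 1.03 ± 0.106 CPM (SD, n = 3) in experiment 2. It fell by 1.32 on the log2 scale (SE 0.22, edgeR adjusted p = 0.010) under low and by 1.98 (SE 0.24, edgeR adjusted p = 0.0077) under high stretch. The low-stretch call of Fgf1 was lost without unstretched replicate 3 (-1.52 to -1.05 over the 9 fits with a sample left out) and its high-stretch call without high-stretch replicate 1 or 3 (-2.06 to -1.81 over the 6 fits). Edn1, which encodes the vasoconstrictor endothelin 1, fell by 1.06 and 1.61, and Adm, which encodes the vasodilator adrenomedullin, fell by 1.11 and 1.41. Cxcl12 passed under low stretch, and Ptn, the growth factor pleiotrophin, fell by 2.21 (SE 0.38, edgeR adjusted p = 0.024) under high stretch. The median of the list was -0.63 under low and -0.40 under high stretch.

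Vegfa, Apln, Adm and Angptl4 are known to respond to low oxygen, and Angptl4 also to PPAR receptors, so lists for both were followed. Of 16 hypoxia response genes, edgeR called 1 of 16 (6.25%) under low and 2 of 15 (13.3%) under high stretch, beside 5.45% and 3.47% of all genes. The low-stretch share was thus near that of all genes. With the plate run as a block 6 were called under low stretch, beside 6106 of all 21672 genes. Epas1, which encodes the hypoxia-inducible factor HIF-2α, fell by 2.08 on the log2 scale (SE 0.36, edgeR adjusted p = 0.011) under low and by 2.11 (SE 0.37, edgeR adjusted p = 0.024) under high stretch. Ndrg1 fell by 1.25 (SE 0.26, edgeR adjusted p = 0.045) under high stretch. The medians of the list were -0.10 and -0.26. Of 9 PPAR receptors and target genes, edgeR called 2 of 6 under low stretch, Plin2, a lipid droplet protein (0.90 higher, SE 0.20, edgeR adjusted p = 0.032), and Ppard, which fell by 0.28 (SE 0.06, edgeR adjusted p = 0.029). Under high stretch edgeR called 0 of 7, with 1 at an unadjusted p under 0.05 (2705 of 18524 over all genes) and 1 called by DESeq2 (1321 of 21908). Plin2 had a log2 fold change of 1.13 there (SE 0.29, edgeR adjusted p = 0.086).

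Over the 5 lists edgeR called 13 of 56 genes under low and 7 of 52 under high stretch, beside 5.45% and 3.47% of all genes. The lists were chosen with earlier results of these data known, so these shares are a description. With the plate run as a block 27 listed genes were called under low stretch, beside 6106 of all 21672 genes. Single samples weigh heavily on these counts. Under low stretch 2 genes were called without unstretched replicate 3 and 4 without unstretched replicate 1, and under high stretch 0 without high-stretch replicate 3, 1 without replicate 1 and 2 without replicate 2 or without unstretched replicate 1, against 14 without unstretched replicate 3. Apart from Nrp1 and Fgf1, each of the high-stretch calls remained in 1 or 2 of the 6 fits with a sample left out.

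**Figure D5:**
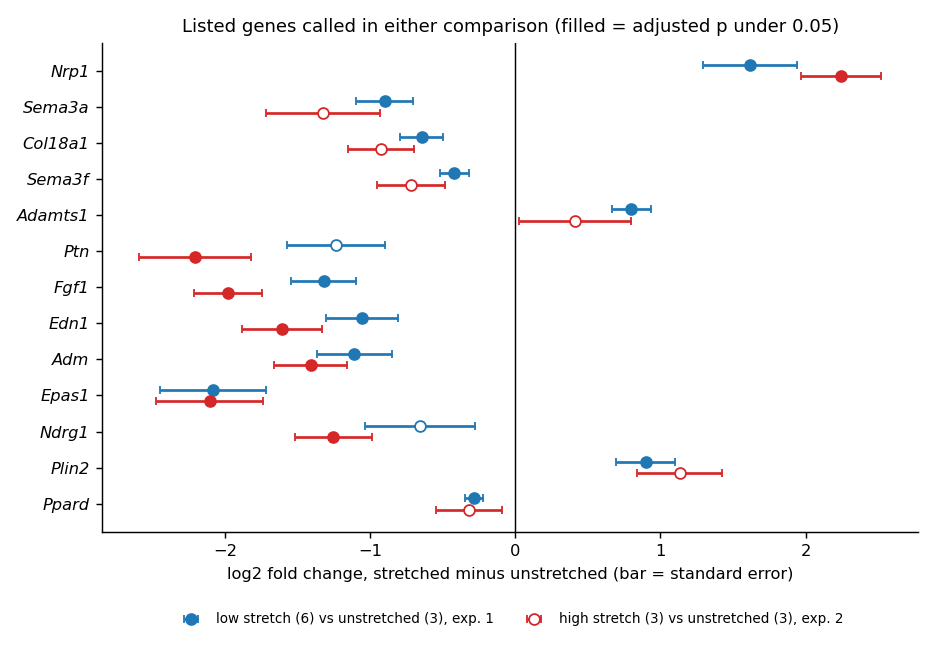
Log2 fold change (point) and standard error (bar) of the 13 named genes of the 5 lists, stretched over unstretched, blue for low and red for high stretch, filled where the adjusted p was under 0.05. Nrp1 is filled and above 0 in both comparisons, and Fgf1, Edn1, Adm and Epas1 are filled and below 0 in both.

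The genes whose pattern was most like that of Cnmd, Apln and Vegfa were sought among 12938 genes, by the root mean square difference of log2 CPM over the 15 samples, each taken relative to the unstretched mean of its experiment. For Cnmd these were Cldn19, a tight junction claudin, at 0.61, and the complement genes C4b at 0.67 and C3 at 0.76. Cldn19 went from 13.3 to 1.70 CPM in experiment 1 and from 22.9 to 0.880 CPM in experiment 2. For Apln they included Cdk15 at 0.46 and Tnfrsf19 at 0.49. For Vegfa, whose differences were small, they were Tnfrsf10b at 0.09, Epha2 at 0.12 and Tigar at 0.12. The measure is a description over samples that share runs, and it carries no test.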

How the data were processed

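Poly(A) RNA from 15 samples was sequenced as stranded paired-end libraries, per the labels' protocols. The authors deposited raw counts for 55416 genes and TPM values for 140789 transcripts. The submitters' processing notes name STAR 2.7.5c, featureCounts, Subread 2.0.0, DESeq2 1.38.3, Salmon 1.9.0 and build mm39, without roles. The strand setting is not given in the sources used here. Symbols, transcripts and exons came from GENCODE M21 (GRCm38), which matched 52135 genes, and unmatched genes held at most 0.181% of a sample's counts.

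The gene tests used the quasi-likelihood method of edgeR 4.0.16 (R 4.3.3) after TMM scaling and filterByExpr, with Benjamini-Hochberg adjustment over all genes at 0.05, in a separate fit per experiment. Standard errors are the log2 fold change over the square root of F. Transcript usage was tested with limma 3.58.1 on log2 ratios with a pseudocount of 0.1 TPM, for genes of at least 1 TPM and transcripts of a mean fraction from 0.05 to 0.95. DESeq2 1.42.0, other scalings, filters, blocks and left-out samples were alternatives. The tests were tested on simulated data.

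The 9 genes and the lists were chosen with earlier results of these data known. Named genes were the 9, 8 receptors, up to 4 called genes per list with the largest high-stretch change, and the 3 most alike genes of at least 1 CPM (prior count 2), of which 1 is not reported here. Thbs1, Cxcl12, the Cnmd and Angptl4 transcripts, the marker genes and the overlapping genes were named after their values were seen.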

Additional observations from a re-analysis of the deposited data

How the results depend on the processing

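The number of the 8 genes called was 2 under low stretch, 4 with a plate run block, and 1 to 2 with a sample left out. Under high stretch it was 3, and 2 to 4 with a sample left out. Between the unstretched groups it was 5, and 3 to 5 with a sample left out. Listed genes called under low stretch were 13, 6 with all 15 samples in 1 fit, 27 with a plate run block and 2 to 15 with a sample left out. Under high stretch they were 7, 13 with DESeq2, 11 with no filter, 12 with all 15 samples in 1 fit, 14 with a replicate block and 0 to 14 with a sample left out. Over all genes, the 1181 calls under low stretch became 2694 with DESeq2, 640 with all 15 samples, 490 with a replicate block, 6106 with a plate run block and 220 to 1630 with a sample left out. The 643 under high stretch became 1321 with DESeq2, 1050 with no filter, 414 at a mean count of at least 100, 1488 with all 15 samples, 1546 with a replicate block and 14 to 1421 with a sample left out. Directions that reversed were all of genes not called: Vegfa under low stretch without unstretched replicate 2 (0.0352, range with a sample left out -0.2043 to 0.0352), Angpt2 under low stretch with a replicate block (0.0102), and the difference between effects of Apln with a replicate block (0.15), of Angpt1 without unstretched replicate 1 or high-stretch replicate 3 of experiment 2 (-0.06, -0.42; range -0.42 to 0.8586) and of Angpt2 without unstretched replicate 3 of experiment 2 (0.0348; range -0.2036 to 0.0348). The baseline difference of Cnmd reversed without unstretched replicate 2 of experiment 1 (-0.29) or unstretched replicate 3 of experiment 2 (-0.37; range -0.37 to 0.4012). The cause was not tested. The labels do not say that replicate numbers pair the samples, and deviations of same-numbered samples correlated at -0.07 on average in experiment 1 and 0.18 in experiment 2, while samples of the same plate run in experiment 1 correlated at 0.44. With the replicate block, which in experiment 1 drops low-stretch replicates 4 to 6, Cnmd under low stretch had -3.88 (edgeR adjusted p = 0.056) and Apln -3.60.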
